A study of Mus musculus with 27 samples.

Results

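Chemokines are small secreted proteins that direct the migration of leukocytes, and they are sorted into CC, CXC and CX3C ligands by the spacing of conserved cysteines near the amino terminus. They act on receptors that couple to inhibitory G proteins, whereas the atypical receptors bind chemokines without that coupling and mostly remove them from the tissue. After skeletal muscle damage, neutrophils and then monocytes enter the tissue along chemokine gradients, and macrophages, fibroblasts and endothelial cells release further ligands.

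The genes described here were the protein-coding entries whose symbols begin with Ccl, Cxcl, Ccr, Cxcr, Cx3cl1, Cx3cr1 or Ackr, each family prefix followed by a number. This rule found 65 entries with 59 different symbols among 54532 genes, and it used no measured value. By role they were 30 CC ligands, 12 CXC ligands, 1 CX3C ligand, 11 CC receptors, 6 CXC receptors, 1 CX3C receptor and 4 atypical receptors. An FPKM (fragments scaled to gene length and library size, a level per length) of at least 0.5 in at least 5 samples was reached by 32 of the 65 entries, and these 32 were tested.

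The samples were tibialis anterior muscles of C57BL/6 mice, a muscle at the front of the lower leg, in 5 groups of poly(A) RNA libraries. The control group held 5 uninjured muscles. Injury was volumetric muscle loss (VML), the surgical removal of part of a muscle, here about 40% of it, in 8-week-old males, with 5 muscles collected on day 3, 6 on day 7, 6 on day 14 and 5 on day 21. Sources differ on whether 1 leg or both were operated on, and the labels do not say whether replicates came from separate mice, so the p-values measure only the spread between these samples. No group carried a transgene or a drug, and all of them share the strain. RNA came from whole muscle, in which fewer cells of a type and less RNA per cell cannot be told apart.

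The reads behind the FPKM totalled 14376395 to 24436763 per sample. The FPKM had been scaled to a denominator that differed from these totals by group. Divided by the total of the sample, it lay between 0.747 and 0.819 in uninjured muscle, 1.14 and 1.48 for day 3, 0.810 and 1.44 for day 7, 0.810 and 1.33 for day 14, and 0.776 and 0.964 for day 21. Over all tested genes, 9 of 27 samples lay nearer to the mean of another group than to that of their own. Among them day 3 replicate 5 lay nearest to day 7, and day 7 replicate 5 lay nearest to day 3. Results are therefore given with all samples and, where a call or a count changed, without these 2. Skeletal muscle markers (Acta1, Ckm, Myh4, Myh1 and Tnnt3) were detected in every group, with a summed FPKM of 52924 to 67385 in uninjured muscle and 16732 to 37618 at day 3.

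The promoters of 6 members are shown because they belong to 4 of the 6 ligands with the largest day 3 difference in mean log2(FPKM + 1) (Ccl8, Ccl6, Ccl9 and Ccl12; an order that depends on the 1 added to each FPKM), to an inducible CXC ligand (Cxcl10) and to a ligand with a steady high level (Cxcl12). Each is the 250 bases before the start of the gene from RefSeq on build GRCm38.p6, written 5′ to 3′ on the strand of the gene. The windows are chr11:82114935-82115184 (plus strand) for Ccl8, chr11:83593088-83593337 (minus) for Ccl6, chr11:83578637-83578886 (minus) for Ccl9, chr11:82101595-82101844 (plus) for Ccl12, chr5:92348890-92349139 (minus) for Cxcl10 and chr6:117168285-117168534 (plus) for Cxcl12. Capitals mark every match, on either strand, to 5 motifs, namely TATAAA (the core promoter box), GAGGAA (the core of the PU.1 site), GGGNNNNNCC (the NF-κB site), GAAANNGAAA (the site of interferon regulatory factors) and GGGCGG (the Sp1 box).
Ccl8: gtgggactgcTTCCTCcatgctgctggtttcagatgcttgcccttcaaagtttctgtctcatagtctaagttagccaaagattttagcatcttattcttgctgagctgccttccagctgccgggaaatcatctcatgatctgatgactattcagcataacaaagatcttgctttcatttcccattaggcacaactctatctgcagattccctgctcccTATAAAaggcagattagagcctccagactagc
Ccl6: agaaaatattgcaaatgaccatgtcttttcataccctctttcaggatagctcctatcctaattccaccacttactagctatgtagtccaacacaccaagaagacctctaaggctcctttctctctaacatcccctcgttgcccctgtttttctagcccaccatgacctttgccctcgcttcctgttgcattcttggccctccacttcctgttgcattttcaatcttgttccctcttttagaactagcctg
Ccl9: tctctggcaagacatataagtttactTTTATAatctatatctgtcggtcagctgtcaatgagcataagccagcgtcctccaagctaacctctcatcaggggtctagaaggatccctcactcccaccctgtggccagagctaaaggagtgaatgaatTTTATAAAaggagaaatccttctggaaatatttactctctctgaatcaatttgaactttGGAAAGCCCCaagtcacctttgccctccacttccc
Ccl12: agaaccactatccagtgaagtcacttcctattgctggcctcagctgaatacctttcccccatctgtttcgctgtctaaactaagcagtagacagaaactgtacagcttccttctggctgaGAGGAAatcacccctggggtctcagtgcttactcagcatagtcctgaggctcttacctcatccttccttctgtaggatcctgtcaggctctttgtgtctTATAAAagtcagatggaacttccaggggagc
Cxcl10: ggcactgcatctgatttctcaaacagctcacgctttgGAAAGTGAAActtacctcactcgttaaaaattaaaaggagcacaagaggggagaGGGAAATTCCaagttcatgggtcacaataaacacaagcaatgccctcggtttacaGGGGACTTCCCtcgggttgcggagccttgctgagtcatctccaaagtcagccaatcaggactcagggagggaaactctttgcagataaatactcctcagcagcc
Cxcl12: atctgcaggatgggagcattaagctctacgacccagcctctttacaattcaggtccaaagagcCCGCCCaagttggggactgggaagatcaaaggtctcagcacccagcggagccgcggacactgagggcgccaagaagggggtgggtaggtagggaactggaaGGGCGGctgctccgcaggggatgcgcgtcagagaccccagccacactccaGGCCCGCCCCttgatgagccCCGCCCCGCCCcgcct

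The Ccl8 and Ccl12 windows, 2 genes whose transcripts rose together at day 3, each held a TATAAA ending 27 and 26 bases before the start and a GAGGAA further upstream. The Cxcl10 window held 4 matches of GGGNNNNNCC, 3 of which overlap each other, and 1 of GAAANNGAAA, and the Ccl6 window held none of the 5 motifs. The Cxcl12 window was 64.4% G and C and held 5 matches of GGGCGG, 1 of which overlapped its GGGNNNNNCC match, while the other 5 windows were 43.6% to 48.4% G and C and held no GGGCGG. The motif TATAAA was present in 27.5% of the 51 windows that RefSeq gives for 44 of the 59 symbols, against 12.4% of 32851 windows of all genes. The other shares, members first, were 31.4% and 23.3% for GAGGAA, 54.9% and 45.8% for GGGNNNNNCC, 5.88% and 2.98% for GAAANNGAAA, and 15.7% and 32.7% for GGGCGG. In the 25 windows of tested members the shares were 32% for TATAAA, 40% for GAGGAA, 40% for GGGNNNNNCC, 8% for GAAANNGAAA and 20% for GGGCGG. In the 13 windows of members higher at day 3 they were 38.5%, 53.8%, 38.5%, 7.69% and 15.4% in the same order, so that GGGNNNNNCC was below its share of all windows in both sets. These are matches of letters in a short window and were not tested.

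Day 3 was compared with uninjured muscle to ask which chemokine genes respond early to VML. Of the 32 tested members, 21 were higher, 1 was lower and 10 were not called (limma, Benjamini-Hochberg adjusted p below 0.05), and 23.4% of all 14630 tested genes were called higher and 19.8% lower. The median difference of the 32 members in mean log2(FPKM + 1) was 1.09, against 0.01 over all tested genes. The increase comprised 10 of 15 CC ligands, 3 of 7 CXC ligands, the CX3C ligand, all 4 CC receptors, both CXC receptors and the CX3C receptor that were tested, and neither of the 2 tested atypical receptors. No uninjured sample reached 0.5 FPKM for 11 of the 32 members, which passed the filter only through injured muscle, so the filter favoured higher values after injury. All 11 were among the 21, and the remaining 21 members gave 10 higher and 1 lower. The split of calls depended on the scaling between samples. With FPKM brought to the same total in each sample, a scaling that moved the median of all genes at day 3 to 0.50, 25 members were called higher and 0 lower at day 3, among 6869 and 323 of all genes. The atypical receptor Ackr1 was 1 of the 25. The plot of differences by gene and comparison shows the pattern by role.

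**Figure D1:**
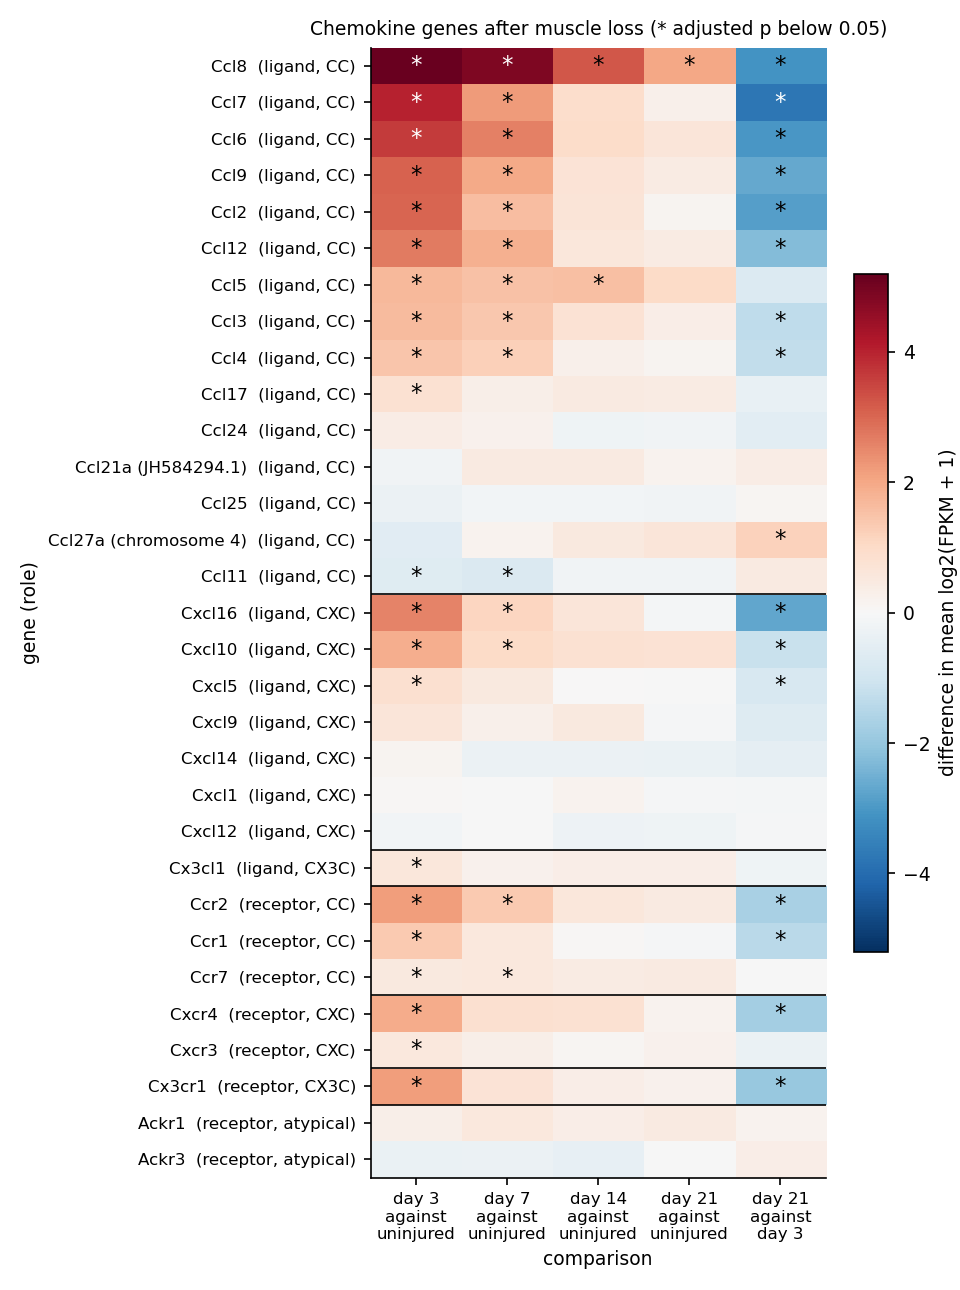
Difference in mean log2(FPKM + 1) (colour, red higher and blue lower) for 31 of the 32 tested chemokine genes (vertical axis, grouped by role) in 5 comparisons (horizontal axis), where an asterisk marks an adjusted p below 0.05 in limma. The day 3 column has 21 asterisks, the day 7 column 14, the day 14 column 2 and the day 21 column 1, and Ccl8 has an asterisk in all 5 columns.

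Ccl8, a CC ligand also known as monocyte chemoattractant protein 2, had the largest increase of the family. In uninjured muscle it was listed at 0 FPKM in 4 samples and at 0.477 FPKM in the other, and at day 3 the 5 samples were at 27.1, 27.3, 41.2, 22.8 and 101 FPKM. At day 7 the lowest, median and highest samples were at 10.7, 26.3 and 92.6 FPKM, and at day 14 they were at 3.03, 9.41 and 16.3 FPKM. At day 21 the samples were at 4.06, 4.56, 4.32, 1.04 and 4.38 FPKM, so that no injured sample at any time overlapped the uninjured range. No uninjured sample reached 0.5 FPKM, so Ccl8 passed the filter only through injured muscle, which favoured a higher value after injury. The difference from uninjured muscle in mean log2(FPKM + 1) was 5.14 ± 0.47 (SE) at day 3 (adjusted p = 7.50e-08) and 4.86 ± 0.45 at day 7 (3.27e-07). It was 3.24 ± 0.45 at day 14 (0.000107) and 2.02 ± 0.47 at day 21 (0.0179). These log2 differences understate the ratio for a gene this close to 0, since 1 is added to each FPKM.

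Ccl2, Ccl7 and Ccl12, ligands of Ccr2, the receptor by which monocytes leave the blood, rose with their receptor at day 3. Ccl2 (monocyte chemoattractant protein 1) was at 0.396, 0.511, 0, 0.286 and 0 FPKM in uninjured muscle and at 8.21, 4.73, 15.7, 16.9 and 4.96 FPKM at day 3, a difference of 3.02 ± 0.57 in mean log2(FPKM + 1) (adjusted p = 0.000168). Ccl7, which also binds Ccr2, was at 0, 0.363, 0.851, 0.203 and 0 FPKM without injury and at 16.2, 14.4, 25.6, 30.03 and 14.6 FPKM at day 3, a difference of 4.02 ± 0.61 (1.57e-05). Ccl12, a mouse ligand of the same receptor, was listed at 0 FPKM in 4 uninjured samples and at 0.757 FPKM in the other, and rose to 3.84, 3.30, 6.21, 11.6 and 10.2 FPKM, a difference of 2.71 ± 0.35 (2.79e-06). Every day 3 sample lay above every uninjured sample for the 3 ligands. Ccr2 itself was at 0.155, 0.404, 0.126, 0.156 and 0.283 FPKM in uninjured muscle and at 4.42, 2.64, 6.22, 7.62 and 2.91 FPKM at day 3, a difference of 2.16 ± 0.29 (4.93e-06), again without overlap.

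At day 7 the ligands of Ccr2 were still higher than in uninjured muscle, and 1 sample carried much of the mean. Ccl2 had its lowest, median and highest values at 0.822, 1.25 and 40.8 FPKM, Ccl7 at 1.5, 3.19 and 59.9 FPKM and Ccl12 at 1.31, 2.44 and 10.5 FPKM, with replicate 5 the highest each time. The differences from uninjured muscle were 1.61 ± 0.55 for Ccl2 (adjusted p = 0.0281), 2.21 ± 0.58 for Ccl7 (0.00638) and 1.85 ± 0.34 for Ccl12 (0.000423). Without day 7 replicate 5, the day 7 mean of Ccl2 was 1.38 in place of 7.95 FPKM. The Ccl2 call was lost without uninjured replicate 3 (difference 1.54, adjusted p = 0.0582), without uninjured replicate 5 (1.54, 0.0593), with limma-voom on the reads (0.0617), with no filter on low values (0.0698) and with the 2 groups fitted alone (0.108). Ccr2 had a lowest, median and highest value of 1.2, 1.51 and 9.56 FPKM and differed by 1.38 ± 0.28 (0.00113).

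By day 14 none of the 3 Ccr2 ligands was called, and all of their ranges overlapped those of uninjured muscle. Their lowest, median and highest values were 0, 1.14 and 2.01 FPKM for Ccl2, 0, 1.16 and 6.04 FPKM for Ccl7 and 0.316, 0.618 and 1.32 FPKM for Ccl12. At day 21 the samples were at 0.937, 0.858, 0.210, 0 and 0 FPKM for Ccl2, at 0.962, 0.938, 0.893, 0 and 0 FPKM for Ccl7 and at 0.993, 1.12, 0.888, 0 and 0 FPKM for Ccl12. Replicates 4 and 5 of day 21 held no read of any of these ligands. Ccr2 differed by 0.59 ± 0.28 at day 14 (adjusted p = 0.137), with a lowest, median and highest value of 0.450, 0.857 and 1.31 FPKM, and by 0.46 ± 0.29 at day 21 (0.404), with samples at 0.552, 0.744, 0.653, 0.679 and 0.755 FPKM. Neither Ccr2 difference passed the test, although every sample of both groups lay above the highest uninjured sample.

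**Figure D2:**
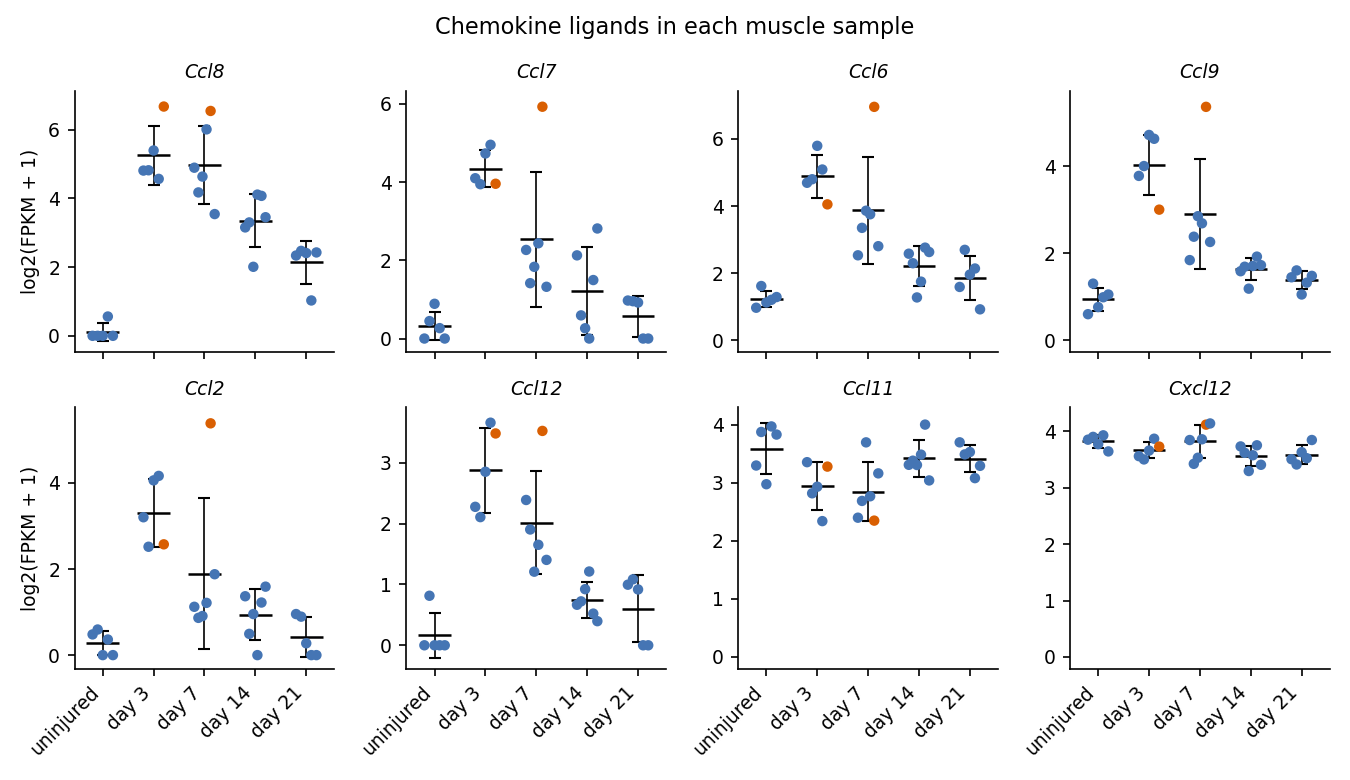
Level of 8 chemokine ligands as log2(FPKM + 1) (vertical axis) in each sample (points) of the 5 groups (horizontal axis), with the group mean as a bar and 1 SD as whiskers, and with day 3 replicate 5 and day 7 replicate 5 in orange. Ccl8 stays above the uninjured samples at all 4 times, the orange day 7 sample is the highest of its group for Ccl7, Ccl6, Ccl9, Ccl2 and Ccl12, Ccl11 is lower at days 3 and 7, and Cxcl12 is level.

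Ccl6 and Ccl9, ligands of Ccr1 that mouse myeloid cells produce, followed Ccl8 and Ccl7 in the size of the day 3 difference in mean log2(FPKM + 1). That order depended on the 1 added to each FPKM, since with 0.1 added Ccl12 (5.36), Ccl2 (5.10), Ccl3 (4.35) and Cxcl10 (4.31) lay above Ccl6 (4.30) and Ccl9 (3.94). Ccl6 was at 0.962, 2.07, 1.19, 1.31 and 1.45 FPKM in uninjured muscle and at 24.9, 26.8, 54.5, 33.0 and 15.6 FPKM at day 3, a difference of 3.64 ± 0.53 (adjusted p = 1.05e-05). Ccl9 was at 0.518, 1.47, 0.7, 0.987 and 1.08 FPKM without injury and at 12.7, 15.1, 25.4, 23.8 and 7.02 FPKM at day 3, a difference of 3.08 ± 0.41 (3.61e-06). Neither gene's day 3 samples overlapped the uninjured ones, and replicate 5 was the lowest of day 3 for both. At day 7 the lowest, median and highest values were 4.79, 10.9 and 123 FPKM for Ccl6 and 2.59, 4.83 and 40.2 FPKM for Ccl9, with differences of 2.63 ± 0.51 (0.000732) and 1.96 ± 0.39 (0.000999). At day 14 they were 1.43, 4.45 and 5.78 FPKM for Ccl6 and 1.28, 2.25 and 2.80 FPKM for Ccl9, neither called (adjusted p = 0.176 and 0.211). At day 21 Ccl6 was at 2.01, 5.48, 2.89, 3.41 and 0.898 FPKM and Ccl9 at 1.73, 2.05, 1.08, 1.51 and 1.79 FPKM, both overlapping the uninjured range.

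Ccl3, Ccl4 and Ccl5, CC ligands that macrophages and T cells release, rose from very low levels. Ccl3 had no read in any uninjured sample, and its mean of 2.56 ± 1.92 FPKM (SD, n = 5) at day 3 was at least 45.2-fold higher than the level that 3 reads over the 5 uninjured libraries together would give. Ccl4 rose from 0.0775 ± 0.173 FPKM to 2.05 ± 1.12 FPKM at day 3, a difference of 1.44 ± 0.39 on the log2(FPKM + 1) scale (adjusted p = 0.00436). Ccl5, which attracts T cells and monocytes, differed by 1.70 ± 0.58 at day 3 (0.0201) and by 1.54 ± 0.56 at day 7 (0.0393), with a lowest, median and highest value of 0.318, 3.39 and 20.5 FPKM at day 3. The highest of these was replicate 5, and without it the day 3 difference was 1.13 and not called (0.0887). The day 7 call of Ccl5 was lost when any of uninjured replicates 1, 2, 3 and 5 or day 7 replicates 1, 4 and 5 was left out, with adjusted p from 0.0539 to 0.118. Ccl3 and Ccr7 were the members with no read in uninjured muscle. With both set to their bounds, the median over the 32 members at day 3 was 1.39 in place of 1.09. That median mixes scales, since the bounds are FPKM ratios without the added 1 and the other members kept log2(FPKM + 1).

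Ccl11 (eotaxin, a ligand of the eosinophil receptor Ccr3) was the only member called lower than in uninjured muscle. It was at 8.81, 13.6, 6.85, 14.6 and 13.2 FPKM without injury and at 9.21, 6.05, 6.62, 4.06 and 8.69 FPKM at day 3, a difference of −0.64 ± 0.24 (adjusted p = 0.0319). At day 7 the lowest, median and highest values were 4.09, 5.62 and 11.9 FPKM, a difference of −0.75 ± 0.23 (0.0171), and the ranges overlapped at both times. The levels were 7.21, 9.15 and 14.99 FPKM (lowest, median and highest) at day 14 and 11.9, 10.2, 10.5, 7.44 and 8.78 FPKM at day 21, and neither time was called. The direction depended on the scaling. With FPKM brought to the same total in each sample, the Ccl11 difference was 0.09 at day 3 (0.793) and −0.11 at day 7 (0.711), and with each sample's own total of reads it was −0.05 (0.859) and −0.26 (0.332). The medians of all genes under these scalings were 0.50 and 0.40 at day 3 and 0.47 and 0.36 at day 7, above the Ccl11 difference each time. The day 3 call was also lost when any of uninjured replicates 2, 4 and 5 or day 3 replicates 2, 3 and 4 was left out (0.0542 to 0.119), without a filter (0.0657) and with a replicate block by number (0.0501) or by letter (0.0507), and the day 7 call without uninjured replicate 4 (difference −0.65, 0.0529).

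Ccl11 is a neighbour of ligand genes that rose. Along chromosome 11 of GRCm38 the order is Ccl2 (82035571 to 82037453, plus strand), Ccl7, Ccl11 (82057823 to 82062955, plus), Ccl12 and Ccl8 (82115185 to 82116799, plus), with Ccl8 starting 79.6 kb from the start of Ccl2. The day 3 differences in that order were 3.02, 4.02, −0.64, 2.71 and 5.14. A second cluster, which begins 1490 kb from the start of Ccl2, holds Ccl5, Ccl9, Ccl6, Ccl3 and Ccl4, whose day 3 differences were 1.70, 3.08, 3.64, 1.65 and 1.44. All 5 genes of the second cluster and 4 of 5 of the first were called higher at days 3 and 7, whereas Ccl1, between the clusters on the minus strand, was below the filter. Over all tested genes 23.4% were called higher at day 3 and 15% at day 7. The day 7 calls of Ccl2 (adjusted p = 0.108), Ccl4 (0.0907) and Ccl5 (0.0585) were lost with the 2 groups fitted alone in limma. Ccl3, Ccl4 and Ccl8 passed the filter only through injured muscle, which favoured higher values.

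**Figure D3:**
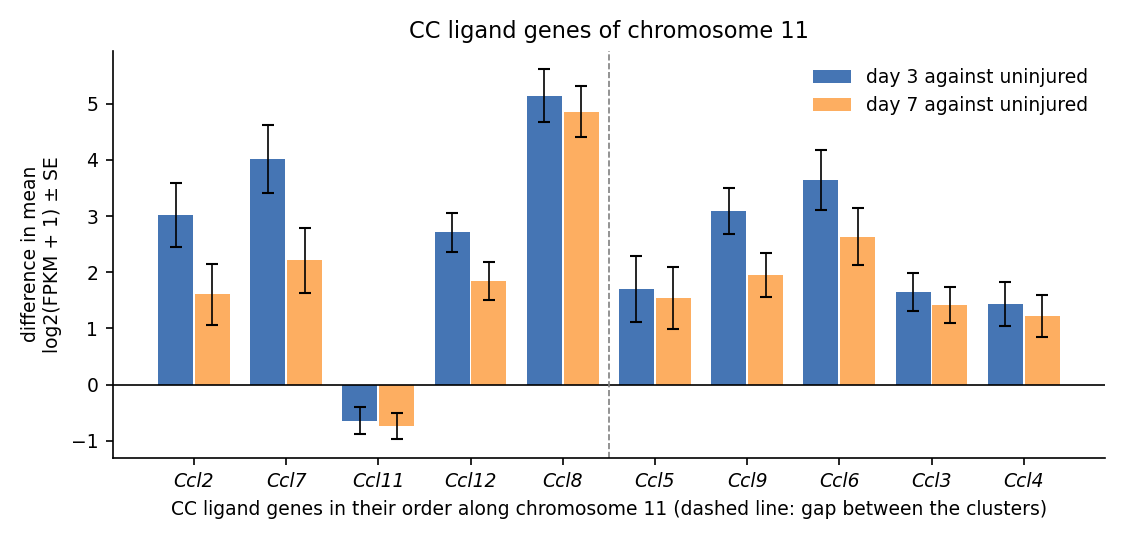
Difference in mean log2(FPKM + 1) from uninjured muscle (vertical axis, bars, whiskers 1 SE) at day 3 (blue) and day 7 (orange) for the 10 tested CC ligand genes of the 2 clusters in their order along chromosome 11 (horizontal axis, not to scale). Ccl11 at −0.64 and −0.75 is the only bar below 0, between Ccl7 at 4.02 and 2.21 and Ccl12 at 2.71 and 1.85.

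The other tested CC ligands were mostly not called. Ccl17, which attracts cells bearing Ccr4, was listed at 0 FPKM in 4 uninjured samples and at 0.226 FPKM in the other, and at day 3 at 1.12, 0.119, 0.885, 0.854 and 1.37 FPKM, a difference of 0.80 ± 0.25 (adjusted p = 0.0121). These values rest on at most 15 reads per sample, and 1 day 3 sample overlapped the uninjured range. Its lowest, median and highest values were 0, 0.346 and 0.607 FPKM at day 7 and 0, 0.382 and 1.70 FPKM at day 14, and the day 21 samples were at 0.692, 0.146, 0.116, 0 and 1.39 FPKM, with no further call. Ccl24, the other tested eotaxin, differed by 0.38 ± 0.28 at day 3 (0.284), and Ccl25 by −0.29 ± 0.14 (0.113). With FPKM brought to the same total Ccl24 was called higher at day 3 (0.74, 0.0433). It was not called with each sample's own total of reads (0.68, 0.0598).

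Ccl27a, a ligand of Ccr10 best known from skin, was the only member higher at day 21 than at day 3. The entry Ccl27a (chromosome 4) was at 3.57, 4.60, 3.91, 5.02 and 2.99 FPKM in uninjured muscle, at 1.55, 1.90, 2.01, 1.33 and 7.08 FPKM at day 3 and at 6.78, 9.35, 4.57, 5.52 and 7.61 FPKM at day 21. At day 7 the lowest, median and highest values were 1.69, 5.2 and 8.85 FPKM, and at day 14 they were 3.31, 6.32 and 9.03 FPKM. Day 21 exceeded day 3 by 1.18 ± 0.31 (adjusted p = 0.00755), and no time point differed from uninjured muscle by the test (day 3 −0.57 ± 0.31, 0.151). With FPKM brought to the same total it was called higher than in uninjured muscle at day 7 (0.73, 0.0247) and day 14 (0.88, 0.0268). With each sample's own total of reads it was called higher at day 14 (0.83, 0.0356). At day 3, 4 samples lay below all uninjured samples and replicate 5 lay above all of them. Without the replicates 5 of day 3 and day 7, Ccl27a was called lower at day 3 (−0.89, adjusted p = 0.00404). This entry overlaps Il11ra1 on the opposite strand in a library that does not keep the strand, so reads of the 2 genes cannot be told apart where they overlap. Its 2 copies on unplaced scaffolds held at most 0.868 FPKM and no read, respectively.

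Among the CXC ligands, Cxcl16 and Cxcl10 had the largest day 3 differences in mean log2(FPKM + 1). With limma-voom on the reads the order was Cxcl10 (6.15), Cxcl5 (4.79) and Cxcl16 (3.65). Cxcl16, a membrane-anchored ligand of Cxcr6 that also binds oxidized lipoprotein, was at 1.01 ± 0.499 FPKM (SD, n = 5) in uninjured muscle and 11.3 ± 3.63 FPKM at day 3, a difference of 2.60 ± 0.37 (adjusted p = 8.70e-06) without overlap. Cxcl10, an interferon-inducible ligand of Cxcr3 with the 2 kinds of site shown in its promoter, was at 0.124 ± 0.249 FPKM without injury and 3.30 ± 1.49 FPKM at day 3, a difference of 1.89 ± 0.33 (7.28e-05). Cxcl9, another ligand of Cxcr3, was not called at any time, and its level of 16.5 FPKM in day 3 replicate 5 compares with 0.264 to 1.86 FPKM in the other day 3 samples. At day 7 Cxcl16 differed by 1.10 ± 0.36 (0.0222) and Cxcl10 by 0.999 ± 0.32 (0.0195). The Cxcl16 call at day 7 was lost without uninjured replicate 2 (difference 0.97, 0.0634), day 7 replicate 4 (0.95, 0.0626) or day 7 replicate 5 (0.76, 0.0654). The Cxcl10 call at day 7 was lost without day 7 replicate 4 (0.90, 0.0509) or replicate 5 (0.69, 0.0553).

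The tested ligands of Cxcr2, the main neutrophil chemokine receptor, were at low levels at day 3, and Cxcl1 and Cxcl5 reached 4.90 and 5.29 FPKM in day 7 replicate 5. Cxcl1 was at 0.240, 0.682, 0.136, 1.04 and 1.02 FPKM in uninjured muscle and at 0.971, 0.359, 0.627, 0.679 and 0.602 FPKM at day 3, a difference of 0.05 ± 0.37 (adjusted p = 0.925). Its lowest, median and highest values were 0, 0.306 and 4.90 FPKM at day 7 and 0, 0.959 and 2.18 FPKM at day 14, and its day 21 samples were at 0.348, 0.721, 0.509, 0.248 and 0.860 FPKM. Cxcl5 was listed at 0 FPKM in 4 uninjured samples and at 0.183 FPKM in the other, and was at 0.669, 0.952, 1.24, 0.942 and 0.429 FPKM at day 3, a difference of 0.82 ± 0.31 (0.0319) without overlap. It had a lowest, median and highest value of 0, 0.107 and 5.29 FPKM at day 7, the highest again replicate 5, and of 0, 0 and 0.157 FPKM at day 14. At day 21 Cxcl5 was at 0.0636 FPKM in 1 sample and at 0 in the other 4. The Cxcl5 call at day 3 was lost when any of uninjured replicates 1, 2, 4 and 5 or day 3 replicates 2, 3 and 4 was left out (0.0542 to 0.0760).

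Cxcl2, Cxcl3 and Cxcr2 did not pass the filter, with highest values of 1.51, 0.230 and 0.396 FPKM in day 7 replicate 5. Cxcl2 was listed at 0 FPKM in all 5 uninjured samples and at 0.0463, 0.0296, 0.0733, 0 and 0.250 FPKM at day 3. Cxcl3 was listed at 0 FPKM in all uninjured samples and at most at 0.0433 FPKM at day 3, and Cxcr2 was at 0, 0, 0, 0.160 and 0 FPKM without injury and at 0.141, 0.261, 0.162, 0.389 and 0 FPKM at day 3. Their highest values were 0.258 FPKM for Cxcl2, 0.0996 FPKM for Cxcl3 and 0.115 FPKM for Cxcr2 at day 14. Among neutrophil markers, S100a8 rose from a mean of 0.768 FPKM to 12.7 FPKM at day 3 and S100a9 from 1.63 to 10.2 FPKM, while Ly6g, a defining marker, was at 0 in all groups but day 3 (mean 0.0102 FPKM) and Retnlg stayed at a mean of at most 0.312 FPKM. The summed neutrophil list was at 0.456 to 4.31 FPKM in uninjured muscle, 20.02 to 37.2 FPKM at day 3 and 2.01 to 98.4 FPKM at day 7, where replicate 5 was the highest.

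Cxcl12 was not called at any time, whereas Cxcr4, its receptor, rose at day 3 and Ackr3, its atypical receptor, was not called. Cxcl12, which stromal and endothelial cells release to retain progenitors and leukocytes, was at 13.4, 13.9, 12.7, 14.2 and 11.5 FPKM in uninjured muscle, at 10.8, 10.3, 11.6, 13.6 and 12.2 FPKM at day 3 and at 10.4, 9.64, 11.4, 10.5 and 13.4 FPKM at day 21. Its lowest, median and highest values were 9.72, 13.4 and 16.6 FPKM at day 7 and 8.82, 11.1 and 12.5 FPKM at day 14. Its differences were −0.16 at day 3, −0.26 at day 14 and −0.24 at day 21 (adjusted p at least 0.154 at all 4 times), whereas with FPKM brought to the same total it was called higher at day 3 (0.0482) and day 7 (0.0277). Cxcr4 was at 4.82, 4.66, 1.89, 3.46 and 3.32 FPKM in uninjured muscle and at 18.6, 13.1, 21.3, 23.3 and 9.38 FPKM at day 3, a difference of 1.95 ± 0.38 (0.000241) without overlap.

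Later on, Cxcr4 had a lowest, median and highest value of 2.34, 7.48 and 24.5 FPKM at day 7 (difference 0.85 ± 0.36, adjusted p = 0.0790) and of 3.33, 6.72 and 13.9 FPKM at day 14 (0.80 ± 0.36, 0.120). At day 21 its samples were at 4.75, 3.91, 4.39, 2.32 and 6.19 FPKM, overlapping the uninjured range. With FPKM brought to the same total Cxcr4 was called higher at day 7 (1.455, adjusted p = 0.0149), as it was with each sample's own total of reads (1.31, 0.0211). Ackr3, the atypical receptor that takes up Cxcl12, was at 4.96, 5.52, 3.84, 5.60 and 6.33 FPKM without injury, at 3.54, 3.98, 3.46, 2.95 and 5.88 FPKM at day 3 and at 5.50, 5.54, 4.93, 4.05 and 6.13 FPKM at day 21. Its lowest, median and highest values were 1.79, 4.07 and 7.68 FPKM at day 7 and 2.68, 3.77 and 4.73 FPKM at day 14. Its day 3 difference was −0.35 ± 0.22 (0.210), and it was not called at any time. Ackr1, the atypical receptor of venules and red cells, was at 0.925 to 2.89 FPKM in uninjured muscle and 1.91 to 6.45 FPKM at day 7 (0.55 ± 0.23, 0.0748). Its calls depended on the scaling. With FPKM brought to the same total it was called higher at day 3 (0.82, adjusted p = 0.00314), day 7 (1.01, 0.00106) and day 14 (0.63, 0.0469). With each sample's own total of reads it was called higher at day 3 (0.72, 0.00735) and day 7 (0.90, 0.00231).

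Cx3cr1, the fractalkine receptor of resident and patrolling mononuclear phagocytes, rose at day 3, and its ligand Cx3cl1 rose by less. Cx3cr1 was at 0.250, 0.0516, 0.208, 0.162 and 0.0455 FPKM in uninjured muscle and at 6.57, 3.58, 6.07, 7.34 and 0.876 FPKM at day 3, a difference of 2.19 ± 0.37 (adjusted p = 5.38e-05) without overlap, in which replicate 5 was the lowest. At day 7 its lowest, median and highest values were 0, 0.615 and 5.44 FPKM (0.70 ± 0.35, 0.137), at day 14 they were 0.213, 0.516 and 0.696 FPKM, and at day 21 the samples were at 0.289, 0.484, 0.622, 0.340 and 0 FPKM. Cx3cl1 was at 1.17, 1.23, 0.607, 0.909 and 0.313 FPKM without injury and at 1.10, 1.54, 1.80, 2.23 and 1.94 FPKM at day 3, a difference of 0.57 ± 0.20 (0.0208) with overlapping ranges. That call was lost without uninjured replicate 5 (difference 0.46, 0.0750) or day 3 replicate 4 (0.51, 0.0614). Cx3cl1 had a lowest, median and highest value of 0.368, 1.43 and 1.84 FPKM at day 7 and of 0.691, 1.40 and 1.82 FPKM at day 14, and was at 1.40, 1.89, 1.11, 1.10 and 1.16 FPKM at day 21. The Cx3cr1 entry spans 9 other genes, Xirp1 of striated muscle among them, whose reads cannot be told apart from it where exons overlap without strand.

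The Ccr7 axis, which guides dendritic cells and T cells to lymph nodes, was at the limit of detection. Ccr7 had no read in any uninjured sample and was at 0.145, 0.278, 0.383, 0.510 and 0.903 FPKM at day 3, a mean at least 20.3-fold higher than 3 reads over the uninjured libraries would give (difference 0.51 ± 0.19, adjusted p = 0.0326). At day 7 its lowest, median and highest values were 0, 0.537 and 1.13 FPKM (0.53 ± 0.18, 0.0300), at day 14 they were 0.162, 0.349 and 0.57 FPKM, and at day 21 the samples were at 0.360, 0.721, 0.362, 0.673 and 0 FPKM, with neither later time called. The day 3 call was lost when any uninjured sample or day 3 replicate 4 or 5 was left out (0.0517 to 0.102), and the day 7 call when any uninjured sample or day 7 replicate 1, 4 or 5 was left out (0.0513 to 0.0894).

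The ligands of Ccr7 have several near-identical entries, among which the counting may have split the reads. The 2 Ccl19 entries held at most 0.0768 FPKM. Of the Ccl21 entries, Ccl21a (JH584294.1), a copy on an unplaced scaffold, was the only one tested, and it was at 3.36, 0.434, 0, 0.606 and 0.170 FPKM in uninjured muscle, at 1.19, 0, 0.0943, 0.655 and 0.468 FPKM at day 3 and at 1.92, 2.24, 1.48, 0 and 0 FPKM at day 21. Its lowest, median and highest values were 0.399, 1.28 and 2.66 FPKM at day 7 and 0, 0.949 and 11.2 FPKM at day 14, and it was not called. The other 5 Ccl21 entries held at most 0.578 FPKM, and Ackr4, the atypical receptor that clears these ligands, held at most 0.497 FPKM.

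Ccr1, a receptor of Ccl3, Ccl5 and related ligands on myeloid cells, and Cxcr3, a receptor of activated T cells, also rose at day 3. Ccr1 was at 0.0530, 0.123, 0.0902, 0.229 and 0 FPKM in uninjured muscle and at 1.86, 1.68, 3.01, 2.17 and 0.796 FPKM at day 3, a difference of 1.36 ± 0.30 (adjusted p = 0.000778) without overlap. At day 7 the lowest, median and highest samples were at 0, 0.208 and 5.05 FPKM (0.54 ± 0.29, 0.154), so that 1 sample, replicate 5, stood above the other 5. Ccr1 was at 0.0318, 0.133 and 0.358 FPKM (lowest, median and highest) at day 14 and at 0.0209, 0.133, 0.147, 0 and 0 FPKM at day 21. Cxcr3, which binds Cxcl9 and Cxcl10, rose from 0.0592 ± 0.0882 FPKM (SD, n = 5) to 0.572 ± 0.138 FPKM at day 3 (0.57 ± 0.13, 0.00136), on at most 29 reads per sample.

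**Figure D4:**
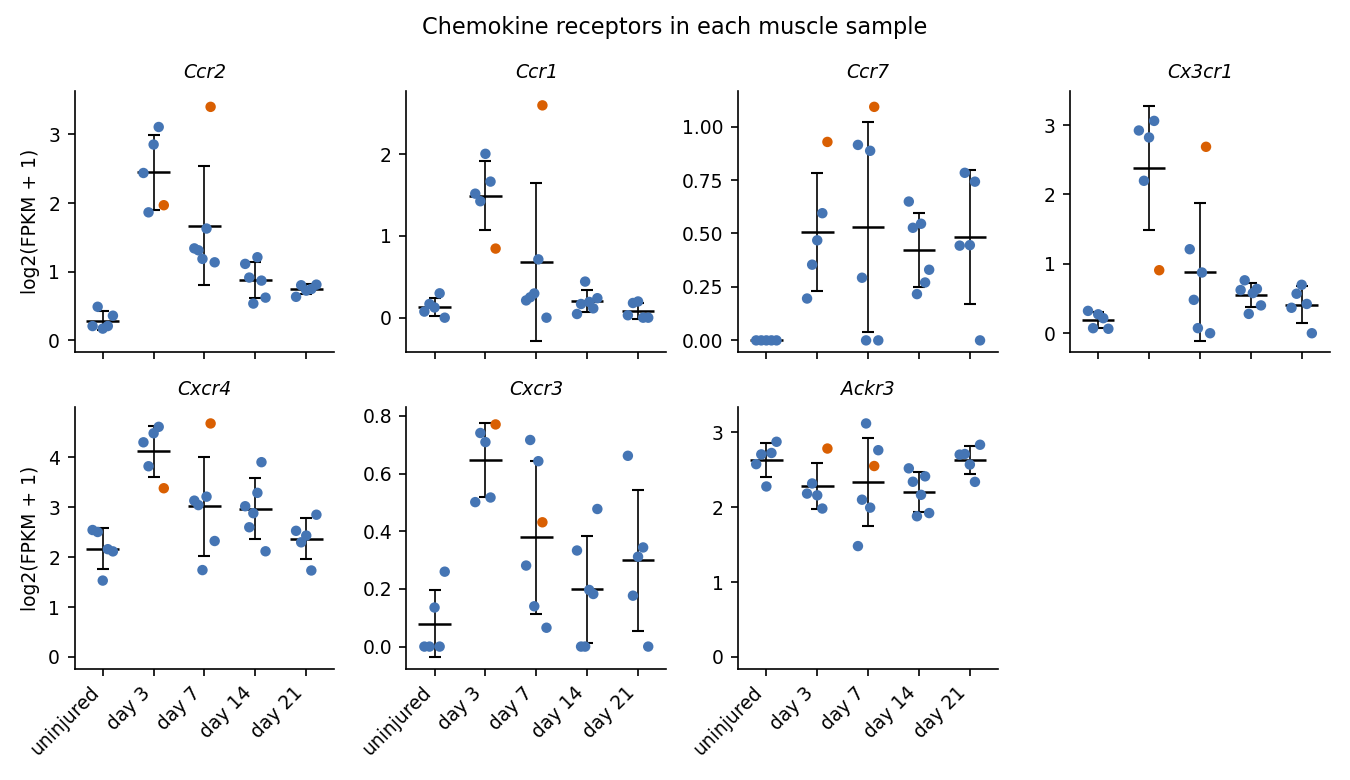
Level of 7 chemokine receptors as log2(FPKM + 1) (vertical axis, scaled per panel) in each sample (points) of the 5 groups (horizontal axis), with the group mean as a bar and 1 SD as whiskers, and with day 3 replicate 5 and day 7 replicate 5 in orange. Ccr2, Ccr1, Ccr7, Cx3cr1, Cxcr4 and Cxcr3 are above all uninjured samples at day 3 and Ackr3 is not, and at day 7 the orange sample is the highest for Ccr2, Ccr1, Ccr7, Cx3cr1 and Cxcr4.

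Day 7 was compared with uninjured muscle to ask which members were still raised after the first days. Of the 32 tested members, 14 were higher and 1 was lower, beside 15% and 14.4% of all tested genes, and the median difference was 0.55 against 0.03 over all genes. The 11 members that passed the filter only through injured muscle were among the 32, so the filter favoured higher values here too. The 14 were 9 CC ligands (Ccl8, Ccl6, Ccl7, Ccl9, Ccl12, Ccl2, Ccl5, Ccl3 and Ccl4), 2 CXC ligands and 3 CC receptors, and the member lower was Ccl11. Within the group, replicate 5 had the highest level of 20 of the 32 members and replicate 6 the lowest of 17. The macrophage list (Cd68, Adgre1, Itgam, Csf1r and Lyz2) summed to 1988 FPKM in replicate 5, within the 306 to 2127 FPKM of day 3, against a lowest value of 42.7 and a median of 252 FPKM in day 7 as a whole. The same list was lowest in replicate 5 at day 3, at 306 FPKM. Whether these 2 samples were exchanged was not tested. Without both of them, 12 members were higher and 1 was lower at day 7, and 19 were higher and 2 lower at day 3. The calls lost were those of Ccl5 and Ccr7 at day 3 and of Ccr7 and Cxcl16 at day 7. With the 2 groups fitted alone, 7 members were called at day 7, and the count over all genes fell from 4296 to 2901.

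Day 14 and day 21 were compared with uninjured muscle to ask what remained. At day 14, 2 members were higher (Ccl8 and Ccl5) and none was lower, beside 9.02% and 11.3% of all tested genes, and at an unadjusted p below 0.05 in limma 7 were higher and 0 lower, beside 16.3% and 18.5% of all tested genes. With limma-voom on the reads 3 were higher (Ccl8, Cxcl10 and Ccr7, but not Ccl5) and 0 lower, beside 7.96% and 10.7%. Ccl5 was at 1.41, 2.68 and 6.44 FPKM (lowest, median and highest) at day 14 against 0 to 0.931 FPKM in uninjured muscle, a difference of 1.58 ± 0.56 (adjusted p = 0.0454). Its call was lost when any 1 of 14 samples was left out, namely all 5 uninjured, day 3 replicate 1, day 7 replicate 2, day 14 replicates 1, 2, 4 and 5 and day 21 replicates 1, 2 and 3 (0.05 to 0.109). The Ccl5 call was also lost with limma-voom (0.0651), with FPKM brought to the same total (0.0620) and with no filter on low values (0.108). Without day 7 replicate 5 the count at day 14 was 7, with Ccl3, Ccl6, Ccl9, Ccr2 and Cxcl10 added, and without both replicates 5 it was 8, with Cxcr4 as well. The counts over all genes were 3358 and 3515 in place of 2969.

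At day 21, 1 member was higher (Ccl8) and none was lower, beside 1.74% and 1.69% of all tested genes, and at an unadjusted p below 0.05 in limma 3 were higher and 0 lower, beside 9.23% and 10.6%. The Ccl8 level at day 21 rested on 8 to 37 reads per sample against 0 to 3 in uninjured muscle. Its call at day 21 was lost without day 21 replicate 2 (difference 1.94, adjusted p = 0.0533), with FPKM brought to the same total (1.85, 0.154), with each sample's own total of reads (1.92, 0.0719) and with limma-voom on the reads, which called 0 members beside 0.977% of all genes higher and 0.950% lower (0.165). The 5 samples lay above all uninjured samples, but Ccl8 passed the filter only through injured muscle, which favoured such a gap. The median difference of the 32 members was 0.44 at day 14 and 0.21 at day 21, against 0.02 and 0.01 over all tested genes. The day 3, 7, 14 and 21 comparisons share the same 5 uninjured samples.

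Day 21 was compared with day 3 to measure the decline. Of the 32 members, 16 were lower at day 21 and 1 was higher, beside 16.2% and 9.23% of all tested genes, and the median difference was −0.78 against −0.0042. Some members, Cxcl5 and Ccr1 among them, passed the filter only through day 3 and day 7 samples, so the filter favoured their decline. Ccl7 differed by −3.77 ± 0.61 (adjusted p = 0.000114), Ccl8 by −3.12 ± 0.47 (6.57e-05), Ccl6 by −3.02 ± 0.53 (0.000238), Ccl2 by −2.88 ± 0.57 (0.000674) and Cxcl16 by −2.69 ± 0.37 (4.09e-05). All 5 had every day 21 sample below every day 3 sample. They were named as the largest declines of the 32, a choice that favours such a gap, and its share over all genes was not counted. Among receptors, Cx3cr1 (−1.97), Cxcr4 (−1.75), Ccr2 (−1.70) and Ccr1 (−1.41) were lower, and Ccr7 was not (−0.03 ± 0.19, 0.936). Without the replicates 5 of day 3 and day 7, 18 members were lower, with Cxcl14 (−0.64, 0.0117) and Ccl24 (−0.69, 0.0387) added, among 2703 genes in place of 2377. The Ccl4 call was lost without day 3 replicate 3 (difference −1.17, 0.0543) or replicate 4 (−1.12, 0.0647). The Cxcl5 call was lost when any 1 of 9 samples was left out, all but replicate 5 of day 3 and every sample of day 21 (0.0545 to 0.102).

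The ligands that led the summed signal differed between groups. In uninjured muscle Cxcl14, a ligand also known from epithelia, averaged 36.5 ± 6.97 FPKM (SD, n = 5), Cxcl12 13.1 ± 1.10 FPKM and Ccl11 11.4 ± 3.39 FPKM, together 81.6% of the summed mean FPKM of the 23 tested ligands. Their share in the injured groups was 26.3% (day 3), 27.2% (day 7), 53.8% (day 14) and 65.5% (day 21). At day 3 and day 7 the leading ligand was Ccl8, at 43.9 ± 32.8 and 39.4 ± 31.9 FPKM. The day 3 lead rested on replicate 5, without which Ccl8 averaged 29.6 FPKM, below Cxcl14 at 45.2 and Ccl6 at 34.8 FPKM. Without day 7 replicate 5, Ccl8 averaged 28.8 FPKM at day 7 and Cxcl14 26.9 FPKM. The ligand sum per sample ranged from 57.1 to 89.4 FPKM in uninjured muscle and from 174 to 275 FPKM at day 3, without overlap. At day 7 it ranged from 89.6 to 486 FPKM with a median of 110 FPKM, and at day 21 from 54.0 to 88.8 FPKM. Cxcl14 itself was not called at any time against uninjured muscle (adjusted p from 0.218 to 0.587). With FPKM brought to the same total it was called higher at day 3 (difference 0.96, adjusted p = 0.0173), as it was with each sample's own total of reads (0.80, 0.0173).

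**Figure D5:**
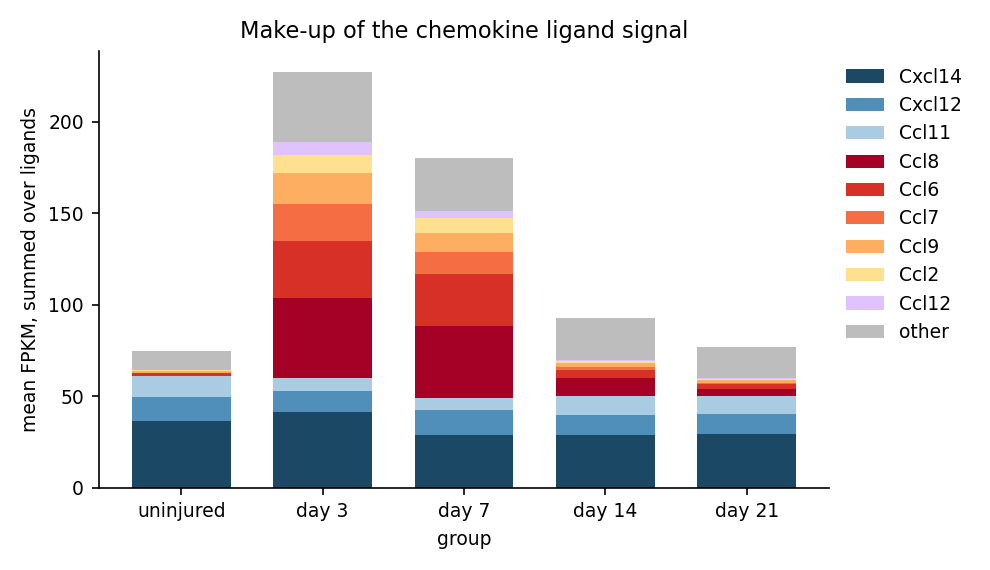
Mean FPKM of chemokine ligands per group (vertical axis, stacked from 0) in the 5 groups (horizontal axis), with 9 ligands in colour and the other 14 tested ligands in grey. The blue part (Cxcl14, Cxcl12 and Ccl11) is 81.6% of the uninjured bar and 26.3% of the day 3 bar, in which Ccl8 and Ccl6 are the largest of the red and orange parts.

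The remaining 33 members did not pass the filter, and 6 of them had no read in any sample. The 6 were Ccl26, Cxcl15, Ccr1l1 and 1 copy each of Ccl19, Ccl21b and Ccl27a. The highest level of the 33 in any sample was 2.23 FPKM for Ccl27b at day 21, and 7 of them reached 0.5 FPKM in some sample. Just outside the limit were Ccl22, Ccl27b and Cxcl2, each with 2 samples at 0.5 FPKM or more, and just inside were Cxcl5 with 5, Cxcr3 with 6 and Ccr1 with 7. Receptors of ligands that rose were among those below it. Ccr8, the mouse receptor of Ccl8, had 2 reads in all 27 samples together, and Cxcr6, the receptor of Cxcl16, reached at most 0.50 FPKM. Ccr3, the receptor of Ccl11, held at most 0.274 FPKM, and the eosinophil markers Siglecf and Epx were at mean levels of at most 0.0373 and 0.0172 FPKM in every group. Prg2, the third eosinophil marker, was at 0 FPKM in all uninjured samples and at a mean of 0.549 FPKM at day 7, where it was called higher (0.56 ± 0.20, adjusted p = 0.0318). Cxcr5, Cxcr1, Ccr4, Ccr6, Ccr9 and Ccr10 held at most 0.146, 0.0770, 0.129, 0.0768, 0.109 and 0.333 FPKM, and Ackr2, which clears inflammatory CC ligands, at most 0.520 FPKM.

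Genes that carry the signal of chemokine receptors were described from a list of 32 (G protein subunits, kinases, Rac activators, arrestins and regulators), of which 30 were tested. At day 3, 22 were higher and 2 lower, with a median difference of 1.09, and at day 7, 18 were higher and 1 lower. Over all tested genes the shares were 23.4% and 19.8% at day 3 and 15% and 14.4% at day 7. Some of the list, Pik3cg, Fgr and Rgs18 among them (at most 0.111, 0.165 and 0.168 FPKM in uninjured samples), passed the filter only through injured muscle. For such genes the filter favoured a higher value after injury. Rac2, the Rac GTPase of blood cells, differed by 2.96 ± 0.38 at day 3 (adjusted p = 2.40e-06) and Arrb2, an arrestin that switches receptors off, by 2.26 ± 0.34 (1.73e-05). Jak2 (−0.81) and Gng5 (−0.74) were the 2 that were lower. At day 14, 1 was higher and none lower (9.02% and 11.3% of all genes), with 6 and 4 at an unadjusted p below 0.05 in limma (16.3% and 18.5%) and 2 and 1 called by limma-voom (7.96% and 10.7%). At day 21 none was called (1.74% and 1.69%), with 2 higher and 1 lower at an unadjusted p below 0.05 in limma (9.23% and 10.6%) and 0 called by limma-voom (0.977% and 0.950%). Against day 3, 23 were lower at day 21 and none higher, beside 16.2% and 9.23% of all genes.

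Of 8 related chemokine and chemoattractant genes outside the naming rule, 7 were tested, and at day 3 Pf4 (platelet factor 4, also called Cxcl4) and Cmklr1 (the chemerin receptor) were higher and Ccrl2 was lower. Pf4 rose from a mean of 3.88 FPKM (3.03 to 5.16) to 133 FPKM (28.7 to 183) at day 3, a difference of 4.56 ± 0.62 (adjusted p = 4.88e-06). Cmklr1 differed by 1.59 ± 0.31 (0.000218). Ppbp, another ligand of Cxcr2, was not called at day 3, at a mean of 0.998 FPKM against 0.196 FPKM in uninjured muscle. At day 7 it had a mean of 1.68 FPKM (0.206 to 6.89). Ccrl2, which binds chemerin without signalling, fell from 5.01 FPKM (4.31 to 5.38) to 1.90 FPKM (1.25 to 2.86) at day 3 (−1.07 ± 0.20, 0.000175). It stayed lower at day 7 (−1.01 ± 0.19, 0.000673), day 14 (−1.02 ± 0.19, 0.00124) and day 21 (−0.86 ± 0.20, 0.0186), where its samples ranged from 1.82 to 3.00 FPKM. At day 7, 2 of the 7 were higher and 1 lower, and at day 14 and day 21 Ccrl2 was the only one called. Over all tested genes the shares higher and lower were 23.4% and 19.8% at day 3 and 15% and 14.4% at day 7. They were 9.02% and 11.3% at day 14 and 1.74% and 1.69% at day 21. A list of 7 is too short to set against these shares.

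Markers of several cell types were followed beside these differences. Of the 5 monocyte and macrophage markers, 5 were called higher for day 3, 4 for day 7, 2 for day 14 and 0 for day 21. Their sum lay between 15.9 and 24.2 FPKM in uninjured muscle, between 42.7 and 99.6 FPKM for day 14 and between 30.7 and 55.5 FPKM for day 21, in addition to the day 3 and day 7 ranges given above. T cell markers were below the filter, with sums of at most 0.527 FPKM in uninjured muscle and 3.00 FPKM in day 3 replicate 5, the sample with the highest Ccl5 and Cxcl9. Endothelial markers summed to 51.3 to 62.4 FPKM in uninjured muscle and 34.2 to 78.3 FPKM at day 3, and fibro-adipogenic markers to 88.3 to 103 and 119 to 201 FPKM. The genes of each list differed. From uninjured muscle to day 3, mean FPKM went from 9.59 to 3.29 for Kdr, 16.4 to 17.3 for Pecam1 and 29.6 to 26.4 for Cdh5. It went from 61.8 to 104 for Ly6a, 30.7 to 32.7 for Dcn and 0.942 to 2.46 for Pdgfra. The dendritic cell list summed to 0.753 to 1.18 FPKM in uninjured muscle and, without overlap, to 2.49 to 5.73 FPKM at day 3. Most of that rise was Itgax, which macrophages also express, from a mean of 0.0504 to 3.27 FPKM. Itgax was called higher at day 3 (1.97 ± 0.24, adjusted p = 1.83e-06) and day 7 (1.05 ± 0.23, 0.00220). Zbtb46 went from a mean of 0.877 to 0.743 FPKM at day 3, and Flt3, below the filter, from 0 to 0.205 FPKM. The adipocyte list (Adipoq, Plin1 and Cidec) had a median sum of 1.14 FPKM in uninjured muscle, 1.08 FPKM at day 3 and 16.3 FPKM at day 7, where all 3 genes were called higher, with a median difference of 1.64. The eosinophil list was at 0 FPKM in every uninjured sample and reached 1.42 FPKM at day 7, and the natural killer and B cell lists summed to at most 5.42 and 2.87 FPKM in any sample. Their part in the chemokine differences was not tested.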

How the data were processed

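Poly(A) RNA of 27 tibialis anterior muscles was sequenced from libraries that do not keep the strand. The authors aligned reads with HISAT2 2.0.5 and counted them per gene with featureCounts 1.5.0-p3, per the labels, and deposited 1 table of FPKM values, which was used here. How its denominators were set is not given in the sources used here, and FPKM times gene length gave whole reads for 100% of values (tolerance 0.02). Groups came from the sample labels, and samples were counted as replicates, whose spread may be technical.

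Genes with at least 0.5 FPKM in at least 5 samples (14630) were tested on log2(FPKM + 1) by limma 3.58.1 with trend (R 4.3.3), with all 27 samples in 1 fit, two-sided, and Benjamini-Hochberg adjustment within each of 5 comparisons. Python 3.11.15 was used for summaries, and the fit was tested on simulated data. Sample values are given for the 6 members with the largest called increase at day 3, those called at day 21 or called lower, those the study names, and the axes of Ccr2, Cxcr2, Cxcr4, Cx3cr1 and Ccr7. Of the other lists, the 3 called genes with the largest day 3 change were to be named. Values of 2 genes, 1 member and 1 of these, are not reported here, although both enter the counts. The members and lists were chosen with earlier results of these data known. The alternatives were another pseudocount, other filters, 3 other scalings, limma-voom on recovered reads, limma without trend, the 2 groups alone, a replicate block, leaving out each sample, and leaving out replicates 5 of day 3 and day 7.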

Additional observations from a re-analysis of the deposited data

Results flagged for a closer look

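Dixon's test, used for groups of 4 to 10 samples, was applied to 153 groups of values of the tested chemokine genes reported here. The highest or lowest sample stood apart from the rest in 20 of them. The test's rate of about 1 in 20 holds for independent groups of normally distributed values, so this count cannot be set against it. A sample with a few reads is flagged wherever all others are at 0, and 1 sample gave 8 of the 20. Day 7 replicate 5 was the high sample for 8 genes, with Ccl2 at 40.8 FPKM, Ccl6 at 123 FPKM, Ccl7 at 59.9 FPKM, Ccl9 at 40.2 FPKM, Cxcl1 at 4.899 FPKM, Cxcl5 at 5.29 FPKM, Ccr1 at 5.05 FPKM and Ccr2 at 9.56 FPKM. This sample lay nearest to the mean of day 3 over all tested genes. Other high samples were day 3 replicate 5 for Ccl27a (7.08 FPKM), day 7 replicate 6 for Ccl25 (1.401 FPKM), day 7 replicate 4 for Cxcl9 (7.68 FPKM) and day 21 replicate 1 for Cxcl5 (0.0636 FPKM). The low samples were day 21 replicate 4 for Ccl8 (1.04 FPKM) and day 14 replicate 4 for Cxcl14 (20.7 FPKM). In uninjured muscle, 1 sample held nearly all reads of a gene near 0 for Ccl12 (0.757 FPKM, replicate 2), Ccl17 (0.226, replicate 2), Ccl4 (0.387, replicate 3), Ccl8 (0.477, replicate 4), Cxcl10 (0.5677, replicate 3), and Cxcl5 (0.183, replicate 3), on 2 to 15 reads. What set these samples apart was not tested.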

How the results depend on the processing

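Of 57 calls in the 5 comparisons, 56 kept their direction and 40 stayed called under every alternative that gave a value. There were 39 such alternatives, 27 of them leaving out 1 sample, and 38 for 6 calls (Ccl17, Ccr7, Cxcl5 and Cxcr3 at day 3, Ccr7 at day 7, and Cxcl5 at day 21 against day 3) whose genes were not tested at a filter of 1 FPKM. The exception in direction was Ccl11 at day 3, at 0.0852 with FPKM brought to the same total. The cause was not tested. With the 2 groups fitted alone, 7 members were called at day 7 (15 in the fit reported), 11 at day 14 (2) and 4 at day 21 (1), while the counts over all genes went from 4296 to 2901, from 2969 to 3748 and from 502 to 1477. At day 14 the count was 7 with a pseudocount of 0.1 (3330 of all genes), 1 without a filter (2205), 4 with each sample's own total of reads (2563) and 8 without the replicates 5 of day 3 and day 7 (3515). At day 21 it was 2 with a pseudocount of 0.1 (647) and 0 with the same total (49), with own totals (133) and with limma-voom (282). Leaving out 1 sample gave 18 to 22 calls for day 3, from 10 to 17 for day 7, between 1 and 7 for day 14, either 0 or 1 for day 21, and 15 to 18 for day 21 against day 3. Over all genes these ranges were 5289 to 6517, 3251 to 5220, 1895 to 3358, 190 to 707 and 2316 to 4076. The highest count at day 14 was without day 7 replicate 5, and the 0 at day 21 without day 21 replicate 2. With the replicate number as a replicate block 21 members were called for day 3 (6560 of all genes), where the Ccl11 call was lost, 16 for day 7 (4986) and 4 for day 14 (3684), and with the block taken from the letters in the labels 2 at day 21 (1233). The samples were not taken as paired, since the labels name no shared animal or batch and 15 of 51 same-numbered pairs had a correlation of deviations over 0.1 (median −0.003, −0.52 to 0.57). As a hint from the data, 11 of 27 samples correlated best with their own number. Genes near 0 FPKM in uninjured muscle rest on few reads, which limits their fold changes.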
